A study of Mus musculus with 8 samples.

Results

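The late comparison of the study set the cerebral cortex of SAMP8 mice at 1 year of age against that of SAMR1 mice of the same age, across every probe set of a whole-genome mouse expression array. Senescence-accelerated mice (SAM) are inbred lines derived from AKR/J stock and split into prone (P) and resistant (R) series, and SAMP8 is the prone line used most for early loss of learning and memory, with SAMR1 as its usual control. The lines differ in the alleles they carry across the genome, including endogenous retroviral sequences, so a difference between them can be present from birth, can appear with age, or can be a difference in how well a probe matches the transcript of each line. Comparing the lines at both ages places a difference in time, but it does not separate a change in RNA from a change in probe binding.

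All animals were male and came from a commercial breeder (Japan SLC), and no treatment was given. The study placed 2 SAMR1 and 2 SAMP8 arrays at 1 year, and the same number of each at 16 weeks, so that 4 of the 8 arrays make up the comparison described here. The strain was taken from the sample titles, since SAMP8 samples carry the genotype SAMR8 in their labels. Each age is stated to hold 2 mice, but no source ties an array to a mouse, and the p-values below measure the spread between arrays, which may be technical in part. Of the 45077 probe sets in the table, the 40 array controls were left out and the other 45037 were tested. Each value is a log2 signal after robust multi-array averaging (RMA), and a difference of 1 on that scale is a doubling of the signal. A probe set was called where limma gave an adjusted p under 0.05 over all 45037.

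The 4 arrays were alike overall. Within a strain, the signals of replicate arrays correlated at 0.9981 in SAMR1 and 0.9978 in SAMP8 over the 45037 probe sets, and between strains the correlations lay between 0.9949 and 0.9962. The median log2 signal was 4.35 or 4.36 on every 1-year array. The median SD between replicates was 0.049 in both strains. Markers of cortical projection neurons were present at a similar summed linear signal on all 4 arrays (7486 and 7634 in SAMR1, 7488 and 7417 in SAMP8, 30 genes), as were those of blood cells (1638 and 1654 against 1703 and 1643, 13 genes). Markers of 3 neighbouring tissues were less even. The summed signal of 17 olfactory bulb markers was 1777 and 1892 in SAMR1 and 2063 and 3042 in SAMP8, and that of 18 choroid plexus markers was 6127 and 6214 in SAMR1 and 5723 and 3915 in SAMP8. SAMP8 replicate 2 was the array that stood farthest from the others on both lists, and values from it are given separately throughout. The summed signal of 18 markers of meninges and fibroblasts was 3213 and 3817 in SAMR1 and 2394 and 3322 in SAMP8, with SAMP8 replicate 1 the lowest.

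At 1 year, 310 probe sets differed between the strains, which is 0.688% of those tested. They divided almost evenly, with 163 higher in SAMP8 (0.362%) and 147 lower (0.326%). Of the 310, 233 carried a single gene symbol, 23 carried several and 54 carried none. The single symbols came to 203 genes (1.03% of the 19761 genes measured), of which 105 had a probe set that was higher and 101 one that was lower. On the brightest probe set of each gene, 122 genes were called (0.617%), 63 higher (0.319%) and 59 lower (0.299%). The median called difference was 0.7 on the log2 scale and the smallest was 0.35. More than 2-fold differences were found for 92 probe sets, 59 higher and 33 lower, and more than 4-fold differences for 18 higher and 2 lower. The median difference over the brightest probe sets of all genes was 0.005. Leaving out 1 of the 4 arrays left between 98 and 133 of the 310 called, and none changed sign. For comparison, the arrays of the strains did not overlap for 38.6% of all probe sets, so a lack of overlap alone, with 2 arrays a side, separates little.

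**Figure D1:**
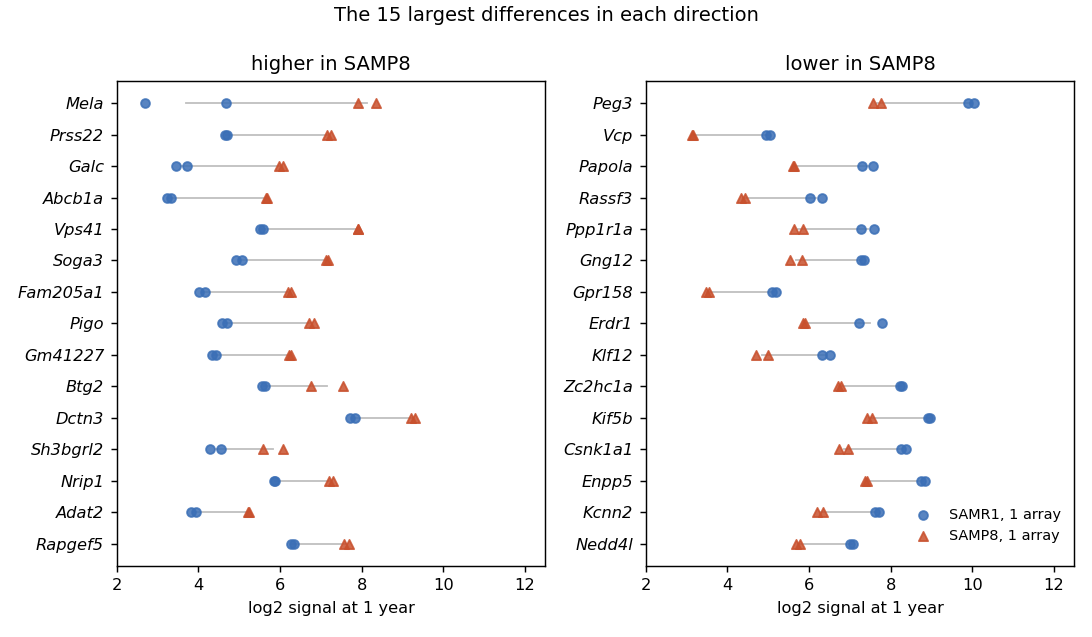
Log2 RMA signal (x axis) on each of the 4 arrays of 1 year for the 15 genes with the largest called difference in each direction, with SAMR1 arrays as blue circles, SAMP8 arrays as orange triangles and a grey line joining the 2 group means. Replicates lie close together against the gap between strains for nearly all genes, with Mela, read at 4.68 and 2.7 in SAMR1, as the widest pair.

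Most of what separated the strains at 1 year separated them at 16 weeks too. The 16-week arrays are other samples, and when they were fitted on their own, 266 of the 310 probe sets (85.8%) differed in the same direction with an unadjusted p under 0.05, 151 of those higher and 115 of those lower. Over all probe sets, 6.67% had the same sign at both ages and such a p. At 16 weeks itself 554 probe sets were called (1.23%), and 212 of the 310 were called at both ages in the same direction. List counts at 16 weeks are given below without the share of all genes at that age. The strain differences at the 2 ages correlated at 0.948 over the 310 called probe sets, a description of points chosen for a large difference at 1 year, and at 0.517 over all 45037. A direct test of whether the strain difference changed with age called 1 probe set (0.00222% of those tested), against 3116 with an unadjusted p under 0.05. Tissue markers were uneven on the 16-week arrays too. The summed signal of 18 striatum markers was 2770 and 6120 in SAMR1 and 5504 and 6133 in SAMP8. That of 18 choroid plexus markers was 5177 and 1432 against 1376 and 1565, with SAMR1 replicate 1 apart on both lists. The part of the dissection in the 16-week differences was not tested.

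**Figure D2:**
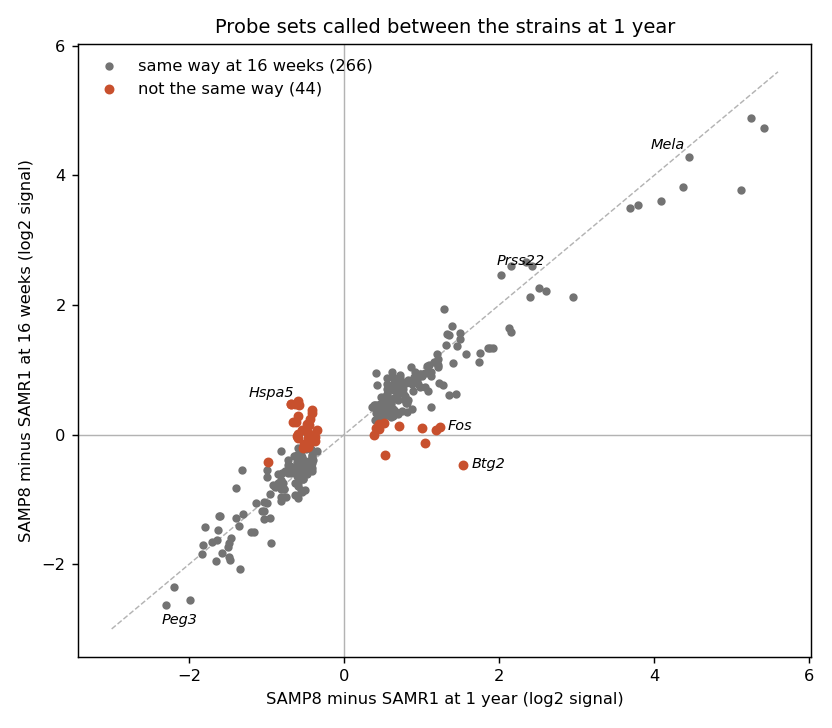
SAMP8 minus SAMR1 at 1 year (x axis) against the same difference at 16 weeks (y axis), both in log2 units, for the 310 probe sets called at 1 year, with the dashed line marking equal differences. Grey points are the 266 that differed the same way at 16 weeks and orange points the 44 that did not, and the orange points lie closer to 0 on both axes.

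Among the largest increases at 1 year were a protease and an efflux pump of the blood-brain barrier. Prss22, a tryptase-like serine protease, read 4.71 and 4.65 in SAMR1 and 7.16 and 7.24 in SAMP8, a 5.74-fold difference (log2 2.52, SE 0.12, adjusted p = 5.53e-05, n = 2 per strain). Abcb1a, the P-glycoprotein pump that endothelial cells use to expel drugs, read 3.22 and 3.33 in SAMR1 and 5.65 and 5.69 in SAMP8 on one probe set (2.40, SE 0.11, adjusted p = 4.45e-05). Its other and brighter probe set differed less, at 3.85 and 3.89 against 4.99 and 4.59 (0.92, SE 0.14, adjusted p = 0.0224). At 16 weeks the differences on these 2 Abcb1a probe sets were 2.13 and 0.96. Abcb1a was one of the 7 genes with several probe sets for which all were called in one direction. In whole tissue, more cells of a type and more RNA per cell cannot be told apart, for this and every other gene below.

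Enzymes, a ciliary protein, a matrix protein and a chemokine were also higher in SAMP8. Adat2, the catalytic subunit of the deaminase that makes inosine in transfer RNA, read 3.81 and 3.94 in SAMR1 and 5.21 and 5.25 in SAMP8 (1.35, SE 0.08, adjusted p = 0.00012). Invs, which encodes the ciliary protein inversin, read 4.71 and 4.95 against 6.04 and 6.05 on its brightest probe set (1.22, SE 0.09, adjusted p = 0.00062). Only that 1 of its 3 probe sets was called, and the others showed 0.07 and 0.51. Matn2, a matrix adaptor protein, was higher on both of its probe sets, with 6.68 and 6.96 against 8.14 and 8.06 on the brighter one (1.28, SE 0.21, adjusted p = 0.0357). In the values given for these 3 genes the gap between strains was wider than that between replicates. The SAMR1 arrays of Invs (SD 0.17) were less even than the median pair (0.049), and so were those of Matn2. Ccl28, a mucosal chemokine, read 4.2 and 4.13 in SAMR1 and 5.01 and 4.88 in SAMP8 on its brightest probe set (0.78, SE 0.10, adjusted p = 0.0139). That was the only 1 of its 4 probe sets called, and the others lay between -0.01 and 0.07. Glb1, the lysosomal beta-galactosidase whose activity is stained as a mark of senescent cells, read 5.32 and 5.3 against 5.82 and 5.65 (0.42, SE 0.07, adjusted p = 0.0416). Both had the same direction at 16 weeks, at 0.60 and 0.35, so neither was a difference seen at 1 year alone.

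Genes that were lower in SAMP8 included signalling proteins and potassium channel subunits. Gng12, a gamma subunit of heterotrimeric G proteins, read 7.26 and 7.35 in SAMR1 and 5.82 and 5.52 in SAMP8 (log2 -1.64, SE 0.13, adjusted p = 0.000756), while its brightest probe set showed 0.01. Rassf3, a Ras association domain protein, read 6.32 and 6.03 against 4.32 and 4.43 (-1.80, SE 0.17, adjusted p = 0.00252). Its brightest probe set read 5.89 and 5.65 against 5.33 and 5.32 (-0.45, adjusted p = 0.0888) and was not called. Enpp5, a member of the ectonucleotide pyrophosphatase family, read 8.75 and 8.83 against 7.42 and 7.36 (-1.40, SE 0.08, adjusted p = 0.000175). Lack of overlap between strains was part of the rule by which these 3 genes were named. Enpp5 differed by -0.83 at 16 weeks. Lyst, the regulator of lysosome size that is mutated in the beige mouse, was lower on 2 probe sets, with 7.53 and 7.4 in SAMR1 and 6.67 and 6.75 in SAMP8 on the brighter one (-0.76, SE 0.09, adjusted p = 0.00559).

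Of 42 potassium channel genes measured, 4 had an unadjusted p under 0.05 with a higher signal and 3 with a lower one, against 3.76% and 3.83% of all genes on the brightest probe set. The list median was -0.03. Kcnn2, the calcium-activated SK2 channel that shapes the afterhyperpolarization, read 7.7 and 7.61 in SAMR1 and 6.34 and 6.2 in SAMP8 (-1.39, SE 0.11, adjusted p = 0.00105) and was lower on a second probe set by 0.99. Kcnv1, a silent subunit that modifies other voltage-gated channels, read 7.28 and 7.26 against 6.45 and 6.46 (-0.81, SE 0.07, adjusted p = 0.0018), with -0.25 at 16 weeks. The change of its strain difference between the ages was not called (adjusted p = 0.275). Only 1 of 3 Kcnv1 probe sets was called at 1 year, its brightest, and the others lay between -0.06 and 0.1. The uncalled Kcnk1, a leak channel, read 8.03 and 8.02 in SAMR1 and 8.44 and 8.33 in SAMP8 (0.36, adjusted p = 0.153).

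A single called probe set often did not stand for its gene. Of the 145 called genes with several probe sets, 117 had only 1 called, and in 73 of those the brightest probe set was not called. In 50 of the 73 the brightest one lay within 0.2 of no difference. For 18 genes 2 or more probe sets were called while others were not, for 7 genes all were called in one direction, and the other 58 called genes had a single probe set. Nrip1, a corepressor of nuclear receptors, read 5.85 and 5.88 in SAMR1 and 7.3 and 7.2 in SAMP8 on one probe set (1.39, SE 0.16, adjusted p = 0.00605), and 7.72 and 7.78 against 7.7 and 7.78 on its brightest (-0.01). Zc2hc1a, which encodes a zinc finger protein, was lower on 2 probe sets (-1.50 and -1.46, adjusted p = 4.45e-05 and 5.92e-05), but read 8.08 and 8.13 against 8.1 and 8.1 on the brightest (-0.01). The brightest probe set of either gene thus showed no gap between strains where the others showed a wide one. Klf12, a transcriptional repressor, was of the same kind, at -1.57 and -1.49 on 2 probe sets and 0.21 on its brightest. Whether such a probe set reads another transcript end, a splice form or a base difference between the strains in its target was not tested.

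Called probe sets of one gene in opposite directions were found for Krr1, Vamp3 and Zfp788. Vamp3, a vesicle SNARE protein, read 6.14 and 6.23 in SAMR1 and 6.91 and 6.9 in SAMP8 on its brightest probe set (0.72, adjusted p = 0.00515), and 5.89 and 5.9 against 5.42 and 5.33 on another (-0.52, adjusted p = 0.0131). Krr1, which acts in assembly of the small ribosomal subunit, differed by -0.73 and -0.59 on its 2 brighter called probe sets and by 0.49 on a dim one. All of these differences had the same direction at 16 weeks, so no single strain difference in RNA level can be given for these genes.

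**Figure D3:**
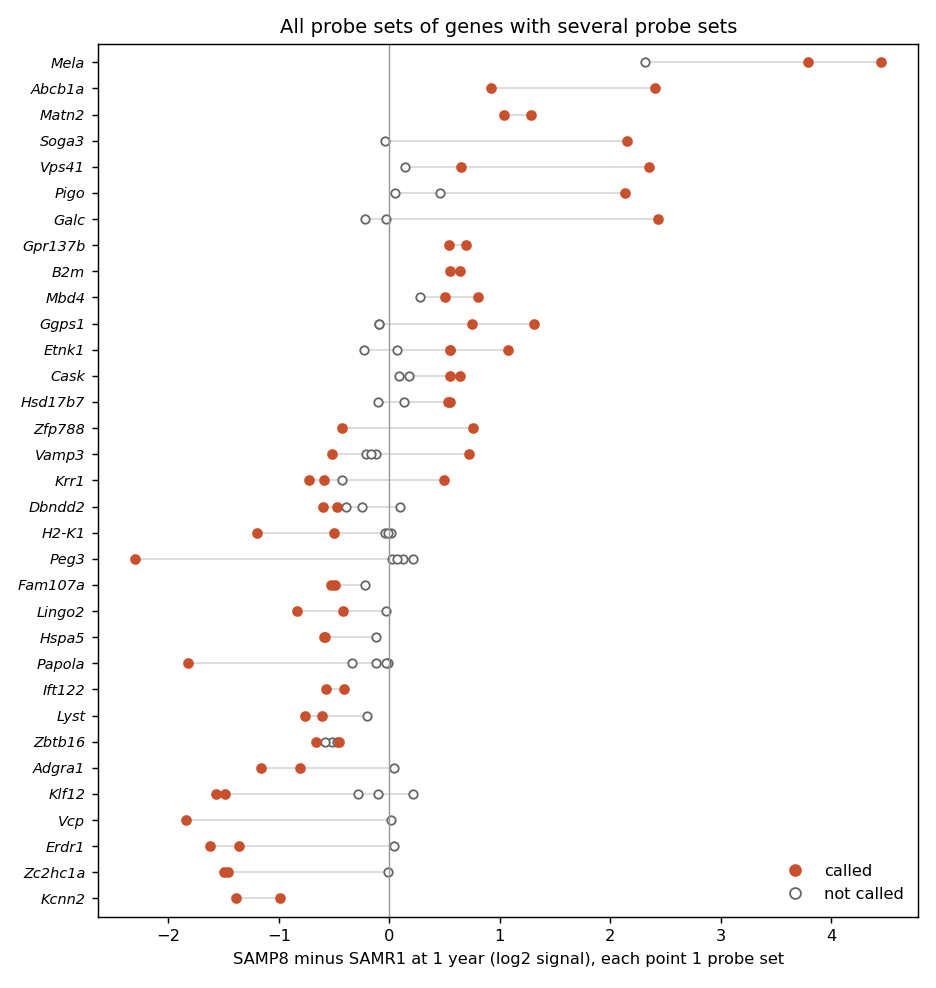
SAMP8 minus SAMR1 at 1 year in log2 units (x axis) for every probe set of nearly all genes with 2 or more called probe sets, and of Peg3, Galc, Pigo, Vcp, Papola and Soga3, with filled points for called probe sets and open points for the others. For Matn2 both points are called and lie above 0, while for Zc2hc1a, Klf12 and Adgra1 called points lie below -0.8 beside an uncalled one near 0.

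The called genes were not spread evenly over the chromosomes. Chromosome 18 had the highest share, 13 of 466 measured genes (2.79%), followed by chromosome 17 with 19 of 863 (2.2%), chromosome 6 with 19 of 1014 (1.87%) and chromosome 4 with 18 of 1125 (1.6%). The lowest shares were on chromosome 5 (2 of 1144, 0.175%), chromosome 11 (0.338%) and chromosome 8 (0.423%). All 13 called genes of chromosome 18 differed the same way at 16 weeks, beside 85.8% of all called probe sets. So did all 12 of chromosome 7 and 17 of the 18 of chromosome 4. When the measured genes were placed in their order along each chromosome, 36 called genes fell in 10 runs of at least 3, with at most 5 uncalled genes between neighbours. Neighbouring genes can share an inherited segment, so the genes of a run are not independent of each other.

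The longest run, of 6 called genes on chromosome 4, included Rpp25l, Dctn3, Fam205a1, Vcp and Pigo. Dctn3, a subunit of the dynactin complex that carries cargo along microtubules, had a single probe set, at 7.71 and 7.84 in SAMR1 and 9.31 and 9.21 in SAMP8 (1.49, SE 0.11, adjusted p = 0.000756). Fam205a1 read 4.16 and 4.01 against 6.26 and 6.2 (2.15, SE 0.21, adjusted p = 0.00273). Vcp, the ATPase that extracts ubiquitin-tagged proteins, was lower on a dim probe set (5.04 and 4.95 against 3.16 and 3.14) and read 9.56 and 9.56 against 9.57 and 9.57 on its brightest. The run thus mixed directions, and 2 of its members, Vcp and Pigo, were each called on a probe set that was not their brightest. A second run, on chromosome 13, held Gpr137b-ps, Gpr137b, Lyst and Ggps1. Ggps1, which makes geranylgeranyl diphosphate for protein prenylation, was higher on 2 of 4 probe sets, with 6.17 and 6.29 against 6.99 and 6.97 on its brightest (0.75, SE 0.07, adjusted p = 0.00184).

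Probe sets that match several genes made up part of the largest differences. The probe set annotated to Ccl19 together with related loci read 4.57 and 4.63 in SAMR1 and 8.33 and 8.26 in SAMP8, and that pattern held at 16 weeks. A set of 3 probe sets annotated jointly to Ccl27a and Ccl27b differed by 1.12, 1.11 and 1.05. One annotated to C4b and a second locus, complement component 4 genes, read 7.26 and 7.51 against 6.61 and 6.53. Such values belong to a gene family as a whole, and none is assigned to a single member here. Mela, an endogenous retroviral sequence named for melanoma antigen, read 4.68 and 2.7 in SAMR1 and 8.36 and 7.92 in SAMP8 (4.45, SE 0.58, adjusted p = 0.0125). Its SAMR1 arrays lay far apart, though both were below the SAMP8 arrays. A second of its 3 probe sets was called at 3.79, and the brightest read 5.5 and 5.11 against 7.8 and 7.43 (2.31, adjusted p = 0.0861) and was not called.

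The 44 probe sets that did not differ the same way at 16 weeks were smaller in size, with a median of 0.51 against 0.75 for the rest. They were mostly lower in SAMP8, 32 against 12 higher, and came from 29 genes with a single symbol. Without SAMR1 replicate 1 or replicate 2 only 2 of the 44 remained called, and without SAMP8 replicate 1 or replicate 2 only 9 and 3 did. At 16 weeks 22 of them had the opposite sign, 10 with an unadjusted p under 0.05 in the 4 arrays of that age. Only 1 of them passed the test of the age difference itself. That probe set carried no gene symbol in the table. It read 5.21 and 5.15 in SAMR1 and 4.46 and 4.54 in SAMP8 at 1 year, and 4.68 and 4.68 in SAMR1 and 5.21 and 5.12 in SAMP8 at 16 weeks. Its strain difference turned from 0.48 to -0.68, a change of -1.17 (SE 0.09, adjusted p = 0.04). For the rest, a difference at 1 year that was not seen at 16 weeks was not shown to differ between the ages.

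Genes that are switched on within minutes by neuronal activity were found among them, namely Fos, Apold1, Dusp1, Nr4a1 and Btg2, 5 of the 12 probe sets that were higher. These activity-induced early genes encode transcription factors, phosphatases and synaptic proteins, and their RNA lasts for a short time after the stimulus. Of 36 such genes measured, 12 had an unadjusted p under 0.05 with a higher signal in SAMP8 and 5 with a lower one, where 3.76% and 3.83% of all genes did. On their brightest probe sets 5 were called, all higher, against 0.319% of all genes, and Btg2 was called on a second probe set. At 16 weeks 17 members were higher at the same unadjusted level, but only 2 of them, Arc and Trib1, were among the 12 of 1 year. All 5 members that were lower at 1 year were among those 17. The list median was 0.11 at 1 year and 0.26 at 16 weeks.

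Fos, the transcription factor most used to mark active neurons, read 7.9 and 7.92 in SAMR1 and 8.88 and 9.41 in SAMP8, a 2.35-fold difference (log2 1.24, SE 0.16, adjusted p = 0.0111). Apold1, an endothelial gene induced by activity and stress, read 4.89 and 5.05 against 6.05 and 6.26 (1.19, SE 0.12, adjusted p = 0.00284). Nr4a1, an orphan nuclear receptor, read 8.23 and 8.28 against 9.13 and 9.4 (1.01, SE 0.16, adjusted p = 0.03). In all 3 the SAMP8 arrays were both above the SAMR1 arrays, and SAMP8 replicate 2 was above replicate 1. Dusp1, a phosphatase that switches off MAP kinases, read 7.71 and 7.88 against 8.58 and 9.11 (1.05, SE 0.16, adjusted p = 0.0266). Btg2, an antiproliferative gene induced by activity and by p53, read 5.64 and 5.56 against 6.75 and 7.54 (1.54, SE 0.26, adjusted p = 0.0441), and on its brightest probe set 6.46 and 6.26 against 6.75 and 7.52 (0.78, adjusted p = 0.231). Arc, which drives uptake of AMPA receptors from the synapse, read 7.15 and 7.03 against 8.07 and 8.27 (1.08, SE 0.16, adjusted p = 0.0236). The strains did not overlap for any of these 6 genes, which were picked because they were called, nor for 38.6% of all probe sets. In each of the 6 genes the SAMP8 arrays were the less even pair.

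Arc alone of these 6 was also higher at 16 weeks, by 0.67. The 16-week differences were 0.12 for Fos, 0.07 for Apold1, -0.13 for Dusp1, 0.10 for Nr4a1 and -0.47 for Btg2, and the adjusted p of the age difference was 0.312, 0.179, 0.302 and 0.422 for the first 4. Npas4, a neuronal factor induced only by activity, read 4.2 and 4.27 in SAMR1 and 5.11 and 6.27 in SAMP8 (1.46, SE 0.30, adjusted p = 0.101), so its SAMP8 arrays lay too far apart for a call. Junb, a partner of Fos, was alike at 5.04 and 4.99 against 5.75 and 6.27 (0.99, adjusted p = 0.124). The members with a lower signal at an unadjusted p under 0.05 were Ptgs2, Homer1, Nr4a3, Ier5 and Bdnf. None of them was called. Ptgs2, the inducible cyclooxygenase, read 6.0 and 5.76 against 5.3 and 5.28 (-0.59, adjusted p = 0.19), and Bdnf, the growth factor, read 6.48 and 6.39 against 6.31 and 6.09 (-0.23, adjusted p = 0.585). At 16 weeks the differences were 0.58 for Ptgs2, 0.32 for Homer1, 0.42 for Nr4a3, 0.57 for Ier5 and 0.41 for Bdnf.

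**Figure D4:**
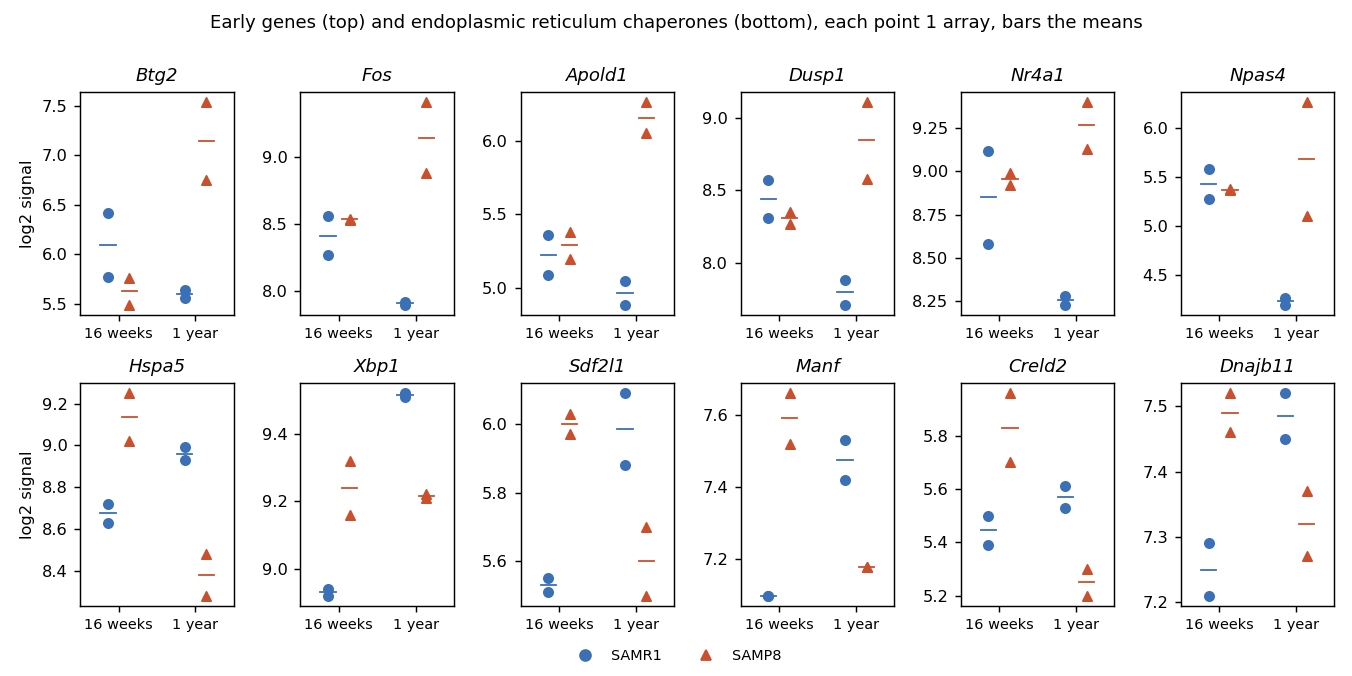
Log2 RMA signal (y axis) on each array for 6 activity-induced genes (top row) and 6 endoplasmic reticulum genes (bottom row), with the strains side by side at 16 weeks and at 1 year and a bar at each mean of 2 arrays. In the top row both SAMP8 arrays lie above both SAMR1 arrays at 1 year, as for Fos at 8.88 and 9.41 against 7.9 and 7.92, and in the bottom row the order of the strains turns between the ages.

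At 1 year SAMP8 replicate 2 was the highest array for the summed olfactory bulb markers, and also for Fos, Apold1 and Nr4a1. Of the 17, Pbx3 and Synpr had an unadjusted p under 0.05, both higher, beside 3.76% of all genes, and none was called, with a list median of 0.40 at 1 year and 0.41 at 16 weeks. The mitral cell marker Cdhr1 read 4.7 and 4.75 in SAMR1 and 5.26 and 7.23 in SAMP8. On the same SAMP8 arrays Fos read 8.88 and 9.41, and Apold1 read 6.05 and 6.26. At 16 weeks Cdhr1 read 4.63 and 5.0 in SAMR1 and 6.87 and 4.78 in SAMP8. Fos at that age read 8.27 and 8.56 in SAMR1 and 8.53 and 8.54 in SAMP8. Without SAMP8 replicate 2 the same 12 of the 36 early genes were higher at an unadjusted p under 0.05, with 2 called, and the opposite count fell from 5 to 1. Leaving out either 1-year SAMR1 array left 1 called. The part of the dissection in these values was not tested.

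The promoters of called early genes were searched for the cAMP response element, the binding sequence of the CREB factor that answers to calcium and cAMP in active neurons. The full palindrome TGACGTCA was searched on both strands in the 250 bases before each start site in RefSeq's windows for GRCm38.p6, which is C57BL/6J sequence and not that of the SAM lines. Of the 6 called early genes, 5 had a window and 2 held the element, compared with 508 of 32851 windows (1.55%). The list was drawn up as genes induced by activity, and its uncalled members were not searched. These counts therefore cannot tie the element to the strain difference. The windows around it are shown 5′ to 3′ on the gene's strand with the element in capitals, for Btg2 at chr1:134079274-134079361 (minus strand, element 166 to 159 bases before the start) and for Dusp1 at chr17:26508568-26508655 (minus strand, 143 to 136 bases before the start).
Btg2: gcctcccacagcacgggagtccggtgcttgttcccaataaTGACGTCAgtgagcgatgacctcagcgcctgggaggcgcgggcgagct
Dusp1: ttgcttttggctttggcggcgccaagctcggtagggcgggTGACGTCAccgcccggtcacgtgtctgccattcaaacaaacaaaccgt

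Some chaperones and response genes of the endoplasmic reticulum had lower signals in SAMP8 at 1 year, though most of the list did not pass the unadjusted threshold. This group folds secreted and membrane proteins and is induced together in the unfolded protein response, through the factors XBP1 and ATF6. Of 29 members measured, 7 had an unadjusted p under 0.05 with a lower signal in SAMP8 at 1 year and none with a higher one, where 3.83% of all genes were lower at that level. At 16 weeks 13 were higher and none lower, and 6 of the 7 were among those 13. More probe sets of all kinds were called at that age (1.23% against 0.688% at 1 year). No member was called for a change of its strain difference between the ages. The list median was -0.08 at 1 year and 0.18 at 16 weeks. Called members were Hspa5 on 2 probe sets, its brightest among them, and Xbp1 and Dnajc3 on 1 probe set each that was not their brightest. Of all genes, 1.03% were called on any probe set in either direction, and 0.299% as lower on the brightest.

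Hspa5, the main chaperone of this compartment (BiP), read 8.99 and 8.93 in SAMR1 and 8.48 and 8.28 in SAMP8 on its brightest probe set (-0.58, SE 0.10, adjusted p = 0.0407). At 16 weeks that difference was 0.46, and the adjusted p of the change between ages was 0.147. Xbp1 read 8.52 and 8.51 against 8.07 and 8.14 (-0.41, SE 0.06, adjusted p = 0.0224), and 0.33 at 16 weeks. Strains were apart for both genes at both ages, in opposite orders. Dnajc3, which holds back the kinase PERK, read 7.12 and 7.18 against 6.7 and 6.7 (-0.45, SE 0.07, adjusted p = 0.0224). The other 4 of the 7 had both SAMP8 arrays below both SAMR1 arrays, as 38.6% of all probe sets had them apart in one direction or the other, and did not pass the adjustment. Sdf2l1, a BiP cofactor, read 5.88 and 6.09 against 5.7 and 5.5 (-0.39, adjusted p = 0.183). Manf, a secreted protein of the same response, read 7.42 and 7.53 against 7.18 and 7.18 (-0.29, adjusted p = 0.19), with 0.49 at 16 weeks. Creld2 and Dnajb11 showed -0.32 and -0.17 and were not called. Cytosolic heat shock proteins did not share the pattern at 1 year, with 1 of 22 higher and none lower at an unadjusted p under 0.05 and a median of -0.01. No chaperone was called on its brightest probe set when any 1 of the 4 arrays of 1 year was left out, and the other called probe set of Hspa5 was still called only without SAMP8 replicate 1.

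The endoplasmic reticulum stress element, bound by NF-Y with ATF6 or XBP1 and written as CCAAT and CCACG with 9 bases of any kind between them, was searched in the same windows on both strands. Of the 7 chaperone genes with an unadjusted p under 0.05, 6 had a window and 3 held the element, compared with 37 of 32851 windows (0.113%). The list was drawn up as genes of this response, and its other members were not searched. The counts therefore cannot tie the element to the strain difference. The Hspa5 window lies at chr2:34771985-34772083 (plus strand, element 65 to 47 bases before the start), that of Dnajc3 at chr14:118937787-118937885 (plus strand, 105 to 87) and that of Creld2 at chr15:88819480-88819578 (plus strand, 126 to 108, element on the reverse strand). They are shown with the element in capitals. These genes had a lower signal in SAMP8 at 1 year. At 16 weeks their signal was higher in SAMP8, by 0.46, 0.15 and 0.39. A match describes the sequence and was not tested as a binding site.
Hspa5: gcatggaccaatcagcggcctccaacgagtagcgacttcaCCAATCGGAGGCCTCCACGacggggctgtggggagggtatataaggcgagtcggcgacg
Dnajc3: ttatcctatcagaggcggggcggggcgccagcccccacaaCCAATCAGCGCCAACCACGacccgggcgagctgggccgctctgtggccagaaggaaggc
Creld2: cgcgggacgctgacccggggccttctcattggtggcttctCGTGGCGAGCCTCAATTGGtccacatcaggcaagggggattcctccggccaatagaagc

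Other genes called at 1 year had a smaller or an opposite difference at 16 weeks, without a called change between the ages. Sik2, a salt-inducible kinase that restrains CREB coactivators, read 7.92 and 7.81 in SAMR1 and 7.32 and 7.14 in SAMP8 (-0.64, SE 0.09, adjusted p = 0.0202), with 0.47 at 16 weeks and an adjusted p of 0.145 for the change. Zbtb16, a transcription factor (PLZF) that glucocorticoids induce, was called on 2 of 5 probe sets, with 7.61 and 7.44 against 6.87 and 6.87 on one (-0.66, SE 0.09, adjusted p = 0.0196), and differed by 0.20 at 16 weeks. Both genes had SAMP8 below SAMR1 at 1 year without overlap, where 38.6% of all probe sets had the strains apart in either direction. Of 20 glucocorticoid target genes, 3 were lower at an unadjusted p under 0.05, namely Zbtb16, Tsc22d3 and Sult1a1, and 1 was higher, Dusp1, against 3.83% and 3.76% of all genes. The list median was -0.12 at 1 year and 0.11 at 16 weeks, and Tsc22d3 and Sult1a1 were not called. Arid5b, a chromatin regulator, was called on 1 of 4 probe sets, with 6.92 and 6.89 against 6.39 and 6.17 (-0.62, SE 0.10, adjusted p = 0.0306). Its brightest probe set showed -0.46 and was not called. Mt3, the metallothionein of brain, read 7.29 and 7.29 in SAMR1 and 7.69 and 7.67 in SAMP8 (0.39, SE 0.06, adjusted p = 0.0254) with no difference at 16 weeks, at -0.0. Aif1, the microglial protein IBA1, read 5.56 and 5.57 against 6.14 and 6.0 (0.51, SE 0.08, adjusted p = 0.0268), with 0.18 at 16 weeks.

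Aif1 was the 1 called gene among the microglial markers, where 0.319% of all genes were called higher on the brightest probe set. Of 23 measured, 4 had an unadjusted p under 0.05 with a higher signal and 2 with a lower one, against 3.76% and 3.83% of all genes. The list median was 0.03, and the summed signal was 2923 and 2856 in SAMR1 and 2882 and 2828 in SAMP8. Ly86, a lymphocyte antigen of myeloid cells, read 6.52 and 6.57 against 7.16 and 6.96 (0.52, adjusted p = 0.0595). Selplg, a selectin ligand of leukocytes and microglia, was among the lower members, at 6.51 and 6.35 against 6.29 and 6.18 (-0.20, adjusted p = 0.579). Single members thus lay on both sides, while the summed signals of the strains overlapped.

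Interferon-responsive genes had slightly higher signals in SAMP8 at both ages. Of 45 measured, 22 had an unadjusted p under 0.05 with a higher signal in SAMP8 and none with a lower one, against 3.76% and 3.83% of all genes, and 42 had a positive difference. The median was 0.16 at 1 year and 0.16 at 16 weeks, where 19 were higher and none lower at that level, 13 of them shared with the 22, beside a median of 0.005 over all genes. One member was called, where 0.319% of all genes were called higher on the brightest probe set. Ifi27, a mitochondrial protein induced by type I interferon, read 6.46 and 6.58 in SAMR1 and 7.08 and 7.22 in SAMP8 (0.63, SE 0.09, adjusted p = 0.0223), with 0.29 at 16 weeks. Uncalled members included Ifit1, an inhibitor of viral translation, at 3.65 and 3.41 against 4.02 and 3.83 (0.40, adjusted p = 0.222). Gbp3, a guanylate-binding GTPase, read 2.89 and 3.08 against 3.39 and 3.77 (0.59, adjusted p = 0.138), and Irf9, a component of the interferon signalling complex, read 4.17 and 4.21 against 4.47 and 4.45 (0.27, adjusted p = 0.365). Each of these had its SAMP8 arrays above its SAMR1 arrays by a margin that the adjustment did not pass. Of all probe sets, 38.6% had the strains apart in one direction or the other. Leaving out one array left between 11 and 24 of the 45 at that level.

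Antigen presentation genes of class I gave no common direction. B2m, the shared light chain, was higher on 2 probe sets, with 7.78 and 7.95 in SAMR1 and 8.33 and 8.5 in SAMP8 on one (0.55, SE 0.08, adjusted p = 0.0254), and by a similar 0.53 at 16 weeks. H2-K1, a classical heavy chain, was lower on 2 of 5 probe sets, with 6.17 and 6.31 against 5.65 and 5.83 on its brightest (-0.50, adjusted p = 0.0416). H2-D1, another heavy chain, was called higher on 1 dim probe set of 5 (1.01) and read 5.42 and 5.33 against 5.41 and 5.26 on its brightest (-0.04). Its uncalled probe sets lay between -1.11 and 0.09. Heavy chain genes are nearly identical to one another and vary between strains, so the signal of one may include others. Of 10 class II genes none was higher and 2 were lower at an unadjusted p under 0.05, H2-Ob at -0.30 and H2-DMa at -0.28, and of 18 complement genes 1 was lower, C2 at -0.31, where 3.83% of all genes were lower at that level. None of these 3 was called.

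Markers of astrocytes and of myelinating oligodendrocytes had more low than high members at 1 year. Astrocyte markers (23 genes) had a median of -0.07 with 2 higher and 5 lower at an unadjusted p under 0.05, and markers of myelinating oligodendrocytes (23 genes) a median of -0.10 with 3 higher and 5 lower, against 3.76% and 3.83% of all genes. Ntsr2, a neurotensin receptor of astrocytes, read 8.54 and 8.52 in SAMR1 and 8.15 and 8.16 in SAMP8 (-0.38, adjusted p = 0.0874). The same oligodendrocyte list had a median of -0.29 at 16 weeks with 16 members lower, and 10 of the 23 had an age difference toward SAMP8 at an unadjusted p under 0.05, none of them called. Opalin, a myelin paranodal protein, read 6.33 and 6.46 in SAMR1 and 6.67 and 6.88 in SAMP8 (0.38, adjusted p = 0.245), with -0.22 at 16 weeks, and Mog, a myelin surface protein, read 5.64 and 5.58 against 5.13 and 5.3 (-0.40, adjusted p = 0.251), with -0.62. The 2 genes thus lay on opposite sides of SAMR1 at 1 year. Mbp, the myelin basic protein, was called on 1 of 8 probe sets (7.57 and 7.48 against 6.8 and 6.99, adjusted p = 0.0111) and differed by -0.12 on its brightest.

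Other cell type and tissue lists had members on one side alone at the unadjusted level, beside 3.76% of all genes higher and 3.83% lower, none of them called on the brightest probe set. Of 15 markers of oligodendrocyte progenitors 3 were higher (Olig1, Olig2 and Pdgfra) and none lower, with a median of 0.06, and of 15 markers of pericytes and smooth muscle 3 were higher (Vtn, Mcam and Atp13a5) and none lower, with a median of 0.04. Olig1, a transcription factor of the oligodendrocyte lineage, read 8.94 and 8.95 in SAMR1 and 9.29 and 9.16 in SAMP8 (0.28, adjusted p = 0.19). Of 15 thalamus markers 3 were lower (Prkcd, Plekhg1 and Tnnt1) and none higher, with a median of -0.01, and of 18 choroid plexus markers 3 were lower (Otx2, Kcnj13 and Kcne2) and none higher, with a median of -0.23. The same 3 thalamus markers were lower at 16 weeks as well, among 8 that were. The summed thalamus signal at 16 weeks was 1617 and 1271 in SAMR1 and 1240 and 1037 in SAMP8, with SAMR1 replicate 1 the highest.

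Genes of the blood-brain barrier changed in both directions. Of 21 endothelial markers, 5 were higher and 2 lower at an unadjusted p under 0.05, against 3.76% and 3.83% of all genes, with a median of 0.03 and a summed signal of 2656 and 2600 in SAMR1 and 2603 and 2721 in SAMP8. Mfsd2a, which carries docosahexaenoic acid into the brain, read 6.08 and 6.14 in SAMR1 and 5.65 and 5.61 in SAMP8 (-0.48, SE 0.07, adjusted p = 0.0268), with 0.17 at 16 weeks. Slco1c1, the thyroxine transporter of endothelium and astrocytes, read 8.5 and 8.41 against 8.08 and 7.83 (-0.50, SE 0.09, adjusted p = 0.0477), with -0.41 at 16 weeks. Beside these, Abcb1a was higher, as given above, and so was Ly6a, the Sca-1 antigen of brain endothelium in some mouse strains, at 5.63 and 5.34 against 6.21 and 6.36 (0.80, SE 0.11, adjusted p = 0.0195). Slc2a1, the glucose transporter, was not called, at 8.81 and 8.83 against 8.62 and 8.48 (-0.27, adjusted p = 0.4).

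**Figure D5:**
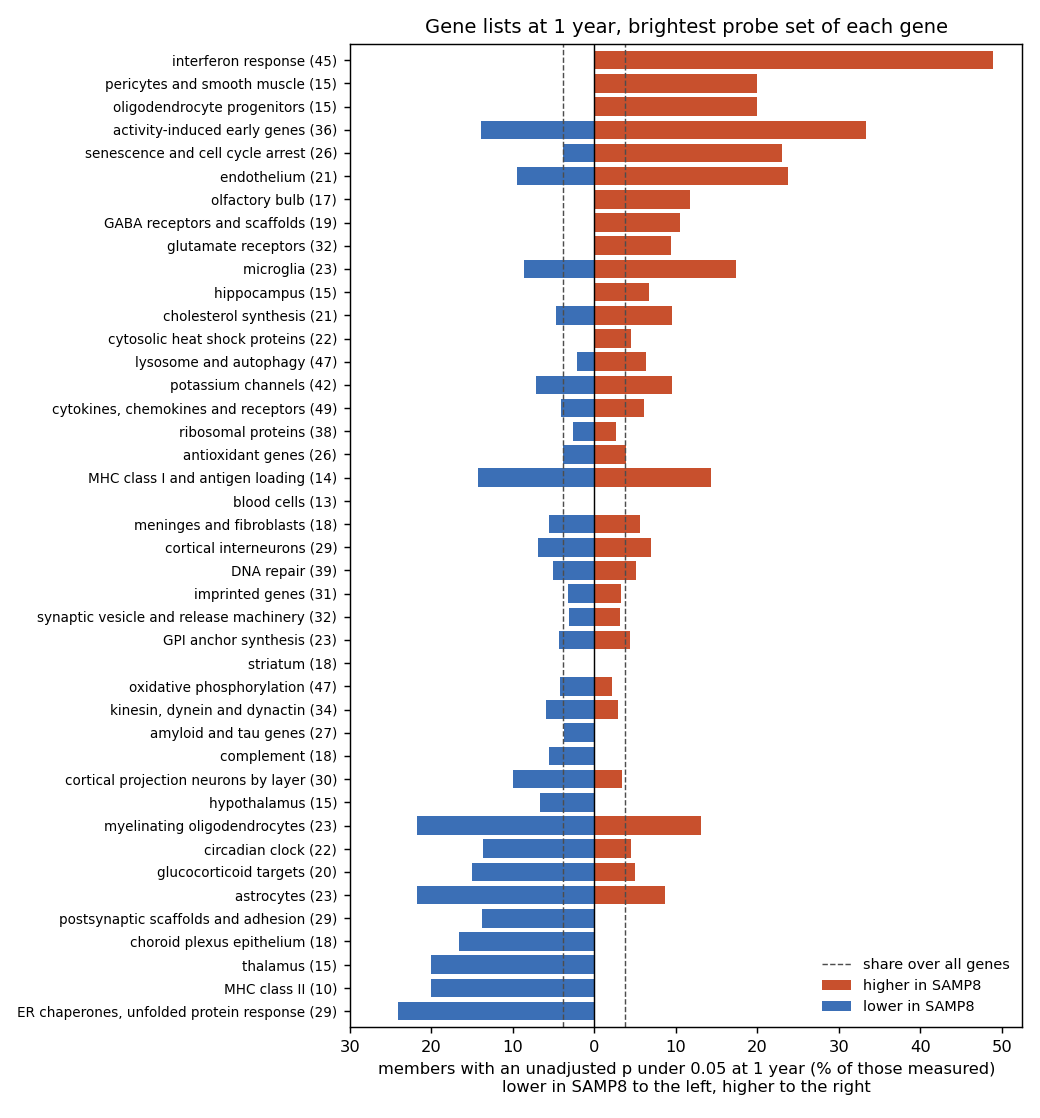
Share of the measured members of each of 42 gene lists (y axis, one pair of bars per list) with an unadjusted p under 0.05 at 1 year, as a percentage (x axis), higher and lower in SAMP8 drawn separately, with dashed lines at the 3.76% and 3.83% of all 19761 genes. Interferon-responsive genes have the longest bar for higher (22 of 45), and activity-induced genes pass the lines in both directions (12 and 5 of 36).

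Most other lists held few calls. No member was called on any probe set among 22 cytosolic heat shock genes, 19 receptors and scaffolds of GABA synapses, 27 genes of amyloid and tau biology, 47 subunits of oxidative phosphorylation, 39 DNA repair genes or 26 antioxidant genes, and their medians lay between -0.01 and 0.04. At an unadjusted p under 0.05, which 3.76% of all genes passed as higher and 3.83% as lower, 3 of 32 glutamate receptor genes were higher and none lower, and among 32 genes of vesicle release 1 was higher and 1 lower. Of 29 postsynaptic scaffold and adhesion genes none was higher and 4 were lower, Dlg2, Homer1, Dlgap2 and Lrrtm2, between -0.18 and -0.22 and not called. Of 26 genes of senescence and cell cycle arrest 6 were higher (Glb1, Btg2, Gadd45g, Bbc3, Ccng1 and Cdkn2b) and 1 lower (Gadd45a), with a list median of -0.04 and Glb1 alone called on its brightest probe set. Of 47 lysosome and autophagy genes, 3 were higher and 1 lower, with Galc and Glb1 called on their brightest probe sets. Galc, which degrades the galactolipids of myelin, read 3.73 and 3.44 in SAMR1 and 5.97 and 6.06 in SAMP8 on that probe set, and differed by -0.22 and -0.03 on the others. Of 22 clock genes 1 was higher and 3 lower, among them the uncalled Per2 at 7.08 and 6.98 against 6.65 and 6.41 (-0.50, adjusted p = 0.398). Of the 55 genes that the study itself named for this comparison, which were chosen on these same arrays, 53 were measured. On some probe set 12 were called higher and 16 lower, where 1.03% of all genes were called in either direction. On their brightest probe sets only 9 were called higher and 5 lower, against 0.319% and 0.299% of all genes.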

How the data were processed

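RNA of 8 cortex samples was hybridised to MG-430 PM array strips. The authors normalised the arrays together by RMA and deposited the result as log2 signals rounded to 2 decimals; per the labels the tools were RMA, limma and the Transcriptome Analysis Console, with versions not given in the sources used here. The labelling kit is given as a whole-transcript kit in one source and as 2 different 3′ kits in others. The authors' table of this comparison, with their own folds and p-values, was not used; its group means lay a median of 0.14 above those of the 8-array table.

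From the log2 signals, limma 3.58.1 (R 4.3.3) fitted 4 group means to all 8 arrays (4 residual and 4.5 prior degrees of freedom) with Benjamini-Hochberg adjustment over 45037 probe sets. Precision is limited by the 2 arrays per group. "The same way at 16 weeks" used a separate limma fit of those 4 arrays. Dim probe sets were kept. Gene symbols came from the authors' annotation; 18432 of 19761 were placed on a chromosome by RefSeq (GRCm38.p6), and lists were counted on the brightest probe set of each gene. The script was tested on simulated data. Genes named were the 15 largest in each direction without overlap, genes with 2 or more called probe sets, genes the study names, up to 6 per list, and the leading genes that differed at 1 year alone or between the ages. The 42 lists and the rule were chosen with earlier results of these data known. Genes whose promoters were searched, Kcnk1, Per2 and Slc2a1 among the uncalled, and the probe sets with several symbols were chosen after their values were seen. Some items that the rule names are not reported here. Alternatives were other variance models, scalings, probe set filters, thresholds, a replicate block and each array left out; those on list counts were added after seeing the data.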

Additional observations from a re-analysis of the deposited data

Results flagged for a closer look

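A single result stood out by a test of the difference between the ages. The probe set without a gene symbol that was lower in SAMP8 at 1 year (-0.68) was higher in SAMP8 at 16 weeks (0.48), and its strain difference changed by -1.17 on the log2 scale (SE 0.09, adjusted p = 0.04 by limma over 45037 probe sets, with 3116 at an unadjusted p under 0.05). The arrays of the strains did not overlap at either age. It was not called for that change when either 1-year SAMR1 array, SAMP8 replicate 2 of 1 year or SAMP8 replicate 1 of 16 weeks was left out, since no probe set was. Groups of 2 arrays are too small to look for single outlying arrays.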

How the results depend on the processing

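Under every alternative limma fit, the 310 called probe sets that were tested kept their direction and an unadjusted p under 0.05, and the 1882 recomputed values of 108 named genes held none of the opposite sign. With all arrays kept, counts of higher, lower and same-way probe sets stayed within 1.5 times of 163, 147 and 266, with these exceptions. Array weights gave 301, 330 and 444, and the brightest probe set of each gene gave 70, 68 and 117. An adjusted p under 0.01 gave 76 higher and 60 lower. An unadjusted p under 0.05 with a fold above 1.1, which the study used, gave 1593 and 1815. A one-way test on the 4 arrays at that threshold gave 902 and 1062, and 0 and 0 after adjustment (92 probe sets with no spread were left out), where limma on the same 4 arrays called 171 and 168. The age difference gave 9 probe sets with an intensity trend, and 0 among the brighter probe sets, with the brightest probe sets or with the replicate block. The replicate block gave 174 higher, 167 lower and 284 the same way; deviations of arrays with the same number correlated at -0.0217, so the samples share only a number. Leaving out 1 array gave 58 to 202 higher, 46 to 199 lower, 98 to 295 the same way and 0 to 52 for the age difference; fewer arrays then carry the test, and a lone array is assumed to vary like the other groups. Of the 310, 99 and 98 remained without SAMR1 replicate 1 or 2 of 1 year and 133 and 108 without SAMP8 replicate 1 or 2, but of the 44 not seen at 16 weeks only 2, 2, 9 and 3 did. Early genes with a higher signal numbered 11 to 15, chaperones with a lower one 4 to 8 and interferon genes with a higher one 11 to 24. Of 83 called named genes, 28, among them Prss22, Galc, Abcb1a, Dctn3, Peg3, Gng12, Kcnn2, Kcnv1, Enpp5 and Apold1, kept their call under every alternative. The other 55 lost it without at least 1 array of 1 year, among them Fos, Nr4a1, Dusp1, Btg2, Arc, Hspa5, Xbp1, Dnajc3, Ifi27, Aif1, B2m, H2-K1, Mfsd2a, Slco1c1, Ly6a, Matn2, Nrip1, Ccl28, Glb1, Sik2, Zbtb16, Arid5b, Mt3 and Mela. With all arrays kept, Hspa5 was lost with the 4 arrays alone and with the block, Dusp1 with the 4 arrays alone, and Btg2 with both and with robust variances. Slco1c1 was lost with the 4 arrays alone and with quantile scaling, Glb1 and Htr1f with the 4 arrays alone, Glb1 also with the intensity trend, and Mela and Erdr1 with robust variances.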
